A study of Homo sapiens with 12 samples.

Results

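Histone genes were followed by class and cluster in polyadenylated RNA from 3 triple-negative breast cancer cell lines. They were taken by symbol, as every entry starting with HIST1H, HIST2H, HIST3H, HIST4H or H2AF plus H1F0, H1FX, H3F3A, H3F3B and H3F3C. This gave 76 of the 28539 entries in each file. The 76 comprised 5 linker, 16 H2A, 14 H2B, 13 H3 and 14 H4 genes of the histone clusters, together called canonical here, and 14 replacement variant genes that carry no cluster name, of which H2AFJ (chr12:14774383-14778002) lies beside HIST4H4 (chr12:14767999-14771131). By cluster, 47 belonged to HIST1, 11 to HIST2, 3 to HIST3 and 1 to HIST4. Of the 76, 3 were listed at 0 in all 12 libraries, and 47 (37 canonical and 10 replacement) had a mean of at least 10 and were tested. Just outside this filter lay HIST1H2AL with a mean of 9.98, and just inside it HIST1H4C with 11.2.

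Each established line was treated for 72 h with JQ1 plus GSK2801, JQ1, GSK2801 or the vehicle DMSO, with 1 library per line and treatment and therefore n = 3 lines per treatment. JQ1 was used at 300 nM in SUM159, 100 nM in MDAMB231 and 500 nM in HCC1806, and GSK2801 at 10 µM in each. HCC1806 was grown in serum-containing RPMI 1640 and the others in DMEM/F12 to which serum, hydrocortisone and insulin had been added. An effect of the line therefore cannot be told apart from one of its medium or its dose of JQ1. JQ1 binds the bromodomains of BET proteins, and GSK2801 those of BAZ2A and BAZ2B. Depth was 24200000 to 46800000 estimated reads per library, with 15766 to 16797 genes detected, and histone genes took 0.173% to 0.428% of the signal. The epithelial genes CDH1 and EPCAM were at 14150 to 27120 and 11490 to 15290 in HCC1806. In the other lines CDH1 was at no more than 33.2, and VIM, a mesenchymal filament gene, at 90380 to 142200. EPCAM was at no more than 7.87 in SUM159 but at 84.0 to 374.5 in MDAMB231. The mesenchymal gene CDH2 was at 5173 to 7151 in SUM159, but at 4.65 to 17.3 in MDAMB231 against 705 to 1412 in HCC1806. In SUM159 the summed level of 9 markers of immune, endothelial, stromal and fat cells was 618 with the combination, 540 with JQ1 and 3074 with GSK2801, against 2733 in DMSO, and its part in the results was not tested.

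Canonical histone genes are mostly transcribed in S phase, when new nucleosomes are assembled on replicated DNA. Their mRNAs usually end just after a conserved stem-loop, which is bound by SLBP and cut by a U7 snRNP complex, and most carry no poly(A) tail. Some of these genes also make longer, polyadenylated transcripts that read past the stem-loop, and such transcripts are known from cells that have left the cycle or differentiated. Most replacement variants are made throughout the cycle from ordinary polyadenylated mRNAs, while H2AFX also has transcripts that end at a stem-loop. A library made from polyadenylated RNA therefore reads genes with stem-loop mRNAs mainly through their polyadenylated transcripts, and the values below are not total histone mRNA.

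The stem-loop is shown for some of the members described below, with 5 bases on either side of its 16 bases. It is given as it occurs in their GENCODE release 29 transcripts on hg38. Capitals mark the stem-loop and each sequence reads 5′ to 3′ along the mRNA.
HIST2H2BE, chr1:149886183-149886208, minus strand: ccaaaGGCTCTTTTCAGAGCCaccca
HIST1H2AC, chr6:26124664-26124689, plus strand: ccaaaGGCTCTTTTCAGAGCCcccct
HIST1H2BD, chr6:26158582-26158607, plus strand: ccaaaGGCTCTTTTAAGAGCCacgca
HIST1H3H, chr6:27810511-27810536, plus strand: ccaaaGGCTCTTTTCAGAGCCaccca
HIST2H4A, chr1:149833027-149833052, plus strand: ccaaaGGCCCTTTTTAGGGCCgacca
HIST2H4B, chr1:149860764-149860789, minus strand: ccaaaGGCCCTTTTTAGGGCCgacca
In all, 26 members had a match to the histone stem-loop consensus in a transcript. The form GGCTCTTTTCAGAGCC occurred in 13 of them, all H2A, H2B or H3 genes, and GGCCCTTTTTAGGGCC in 3, all H4 genes. H2AFX, the DNA damage variant of H2A, was the only replacement member with a match.

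Bases upstream of the start differ between the classes. The 250 bases before the RefSeq start (GRCh38.p14) are shown for a linker gene, an H2A gene, an H2B gene and an H4 gene that rose in the comparisons below. Capitals mark the CCAAT box, the TATA box as TATAAA, the octamer ATTTGCAT and the linker histone element AAACACA, each on either strand.
HIST1H1C, chr6:26056471-26056720, minus strand: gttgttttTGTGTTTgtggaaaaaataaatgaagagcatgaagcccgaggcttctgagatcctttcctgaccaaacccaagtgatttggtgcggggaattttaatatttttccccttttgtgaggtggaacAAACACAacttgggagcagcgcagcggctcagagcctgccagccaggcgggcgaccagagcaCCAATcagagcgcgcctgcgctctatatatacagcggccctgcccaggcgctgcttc
HIST1H2AC, chr6:26123922-26124171, plus strand: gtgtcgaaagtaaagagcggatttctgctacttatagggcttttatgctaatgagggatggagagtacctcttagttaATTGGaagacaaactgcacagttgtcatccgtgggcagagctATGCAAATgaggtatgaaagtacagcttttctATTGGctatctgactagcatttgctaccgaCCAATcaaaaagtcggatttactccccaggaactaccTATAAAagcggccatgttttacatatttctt
HIST2H2BE, chr1:149886683-149886932, minus strand: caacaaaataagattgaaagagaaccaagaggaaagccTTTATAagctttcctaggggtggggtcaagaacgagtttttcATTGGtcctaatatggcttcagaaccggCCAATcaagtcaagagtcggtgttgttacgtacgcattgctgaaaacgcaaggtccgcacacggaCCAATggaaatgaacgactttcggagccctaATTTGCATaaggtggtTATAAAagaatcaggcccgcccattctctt
HIST2H4A, chr1:149832407-149832656, plus strand: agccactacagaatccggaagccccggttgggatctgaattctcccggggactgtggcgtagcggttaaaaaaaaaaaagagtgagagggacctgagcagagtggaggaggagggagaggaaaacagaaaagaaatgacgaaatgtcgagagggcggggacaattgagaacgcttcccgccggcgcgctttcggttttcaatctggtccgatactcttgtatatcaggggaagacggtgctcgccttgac
HIST1H2BC starts on the other strand next to HIST1H2AC, so its window (chr6:26123927-26124176) covers nearly the same bases. A RefSeq promoter was matched for 65 of the 76 members, and genes with several windows were counted by the first one listed. CCAAT occurred in 5 of 5 linker, 13 of 13 H2A, 14 of 14 H2B and 9 of 9 H3 windows but in 3 of 12 H4 windows, against 32.0% of all 35116 RefSeq promoters. ATTTGCAT occurred in 10 of 13 H2A and 10 of 14 H2B windows, against 1.63% of all promoters. AAACACA occurred in 5 of 5 linker windows and in no counted window of the other classes, against 4.82%, although another H3F3A window (chr1:226062466-226062715) also holds it. The E-box CACGTG occurred in no window of a member, against 6.34%. These are letter matches, with no binding measured.

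JQ1 against DMSO asked what this compound alone did to these genes. Summed canonical classes were higher with JQ1 in every line except for H3 in MDAMB231, and replacement variants moved less. H4 totals were 2450 with JQ1 against 335 in DMSO in SUM159, 510 against 213 in MDAMB231 and 2884 against 270 in HCC1806, ratios of 7.31, 2.4 and 10.7. H2A totals gave ratios of 3.42, 3.40 and 7.02 in the same lines, H2B totals 2.4, 2.42 and 4.91, and linker totals 2.4, 1.55 and 6.40. H3 totals were 795 with JQ1 against 184 in DMSO in SUM159 and 1476 against 163 in HCC1806, but 37.2 against 99.0 in MDAMB231, a ratio of 0.376. Replacement totals gave 1.46, 1.01 and 2.03. Totals are sums of values and received no test, and because values are not divided by length they do not rank the classes. In MDAMB231 with JQ1, HIST1H1C held 785 of the linker total of 786, and HIST1H2AC 1456 of the H2A total of 1780. The HIST2H4A and HIST2H4B copies together held 385 of the 510 for H4. Gene by gene, the median log2 ratio of tested canonical members there was 0.0, against 1.3 for SUM159 and 2.45 for HCC1806. MDAMB231 had 2 higher and 1 lower tested linker genes, 4 and 3 H2A genes, and 5 and 3 in both H2B and H4. In RNA from whole cultures, a change in the share of cells that express a gene and a change in RNA per cell cannot be told apart.

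**Figure D1:**
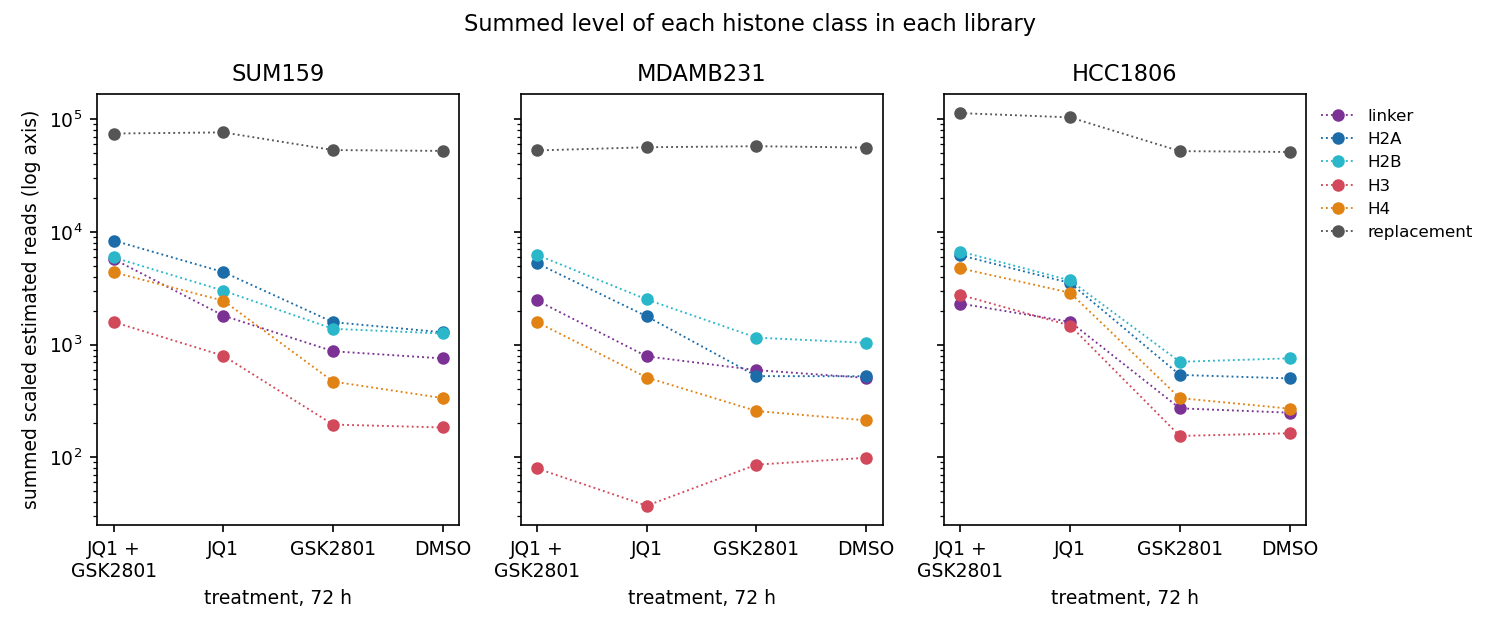
Summed scaled estimated reads (log axis) of each histone class in the 12 libraries, 1 panel per cell line, with treatments from JQ1 plus GSK2801 at the left to DMSO at the right. Each point is 1 library and dotted lines only join points of a class. All canonical classes stand above DMSO with JQ1 and with the combination, apart from H3 in MDAMB231, which is at 79.7 and 37.2 against 99.0 in DMSO.

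In limma with the line as a block, 15 of 47 tested members rose with JQ1 and 1 fell (Benjamini-Hochberg adjusted p under 0.05), beside 9.52% of all 14232 tested genes higher and 13.1% lower. Their median log2 change was 0.94, against −0.08 over all tested genes. Of the 37 canonical members 11 rose and none fell, with a median of 1.19. These were 1 of 3 linker, 3 of 9 H2A, 3 of 9 H2B, 0 of 8 H3 and 4 of 8 H4 genes, and among the H3 genes 1 had an unadjusted p under 0.05. By cluster 7 of 25 rose in HIST1 and 4 of 9 in HIST2, with near-identical copies such as HIST2H4A and HIST2H4B counted separately. A total of 6 members passed the filter only through libraries other than DMSO, so shares of the tested members are descriptions, and with no filter 14 of 73 members were called.

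With both compounds against DMSO, 24 of 47 members rose and 1 fell, beside 15% of all tested genes higher and 19.8% lower, and the median was 1.40 against −0.09 over all tested genes. The canonical members gave 21 rises in 37 and a median of 1.83. The rises comprised 1 linker, 5 H2A, 6 H2B, 4 H3 and 5 H4 genes. In HIST2, 7 of 9 rose, again with near-identical copies counted separately. With such copies summed, 22 of 44 members were called with the combination and 15 of 44 with JQ1. The JQ1 and the combination contrast share the DMSO libraries, so their similarity was not tested. Without any 1 line, 2 of the 16 calls with JQ1 were kept each time (HIST1H2AC and HIST1H2BD), and 10 of the 25 with the combination. With the 6 libraries of each comparison alone, 7 and 11 were called.

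**Figure D2:**
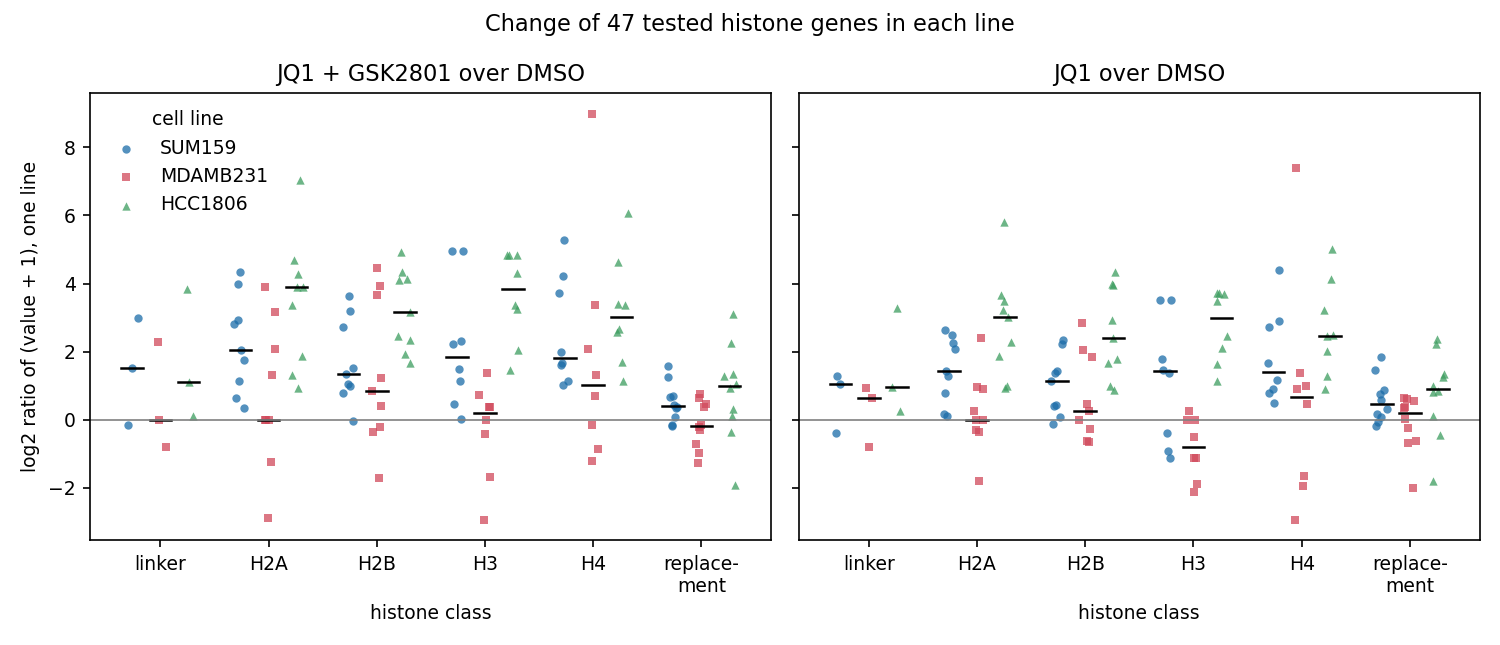
Log2 ratios of (value + 1) for the 47 tested histone genes by class, for JQ1 plus GSK2801 over DMSO (left) and JQ1 over DMSO (right). Each point is 1 gene in 1 line, and black bars are medians of a class in a line. With JQ1 the H3 median is 1.43 in SUM159, −0.81 in MDAMB231 and 2.98 in HCC1806, and the highest MDAMB231 point is HIST2H4B, whose DMSO value there is 0.

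Values of single genes are given below in the line order SUM159, MDAMB231, HCC1806. Among the linker histone genes of the clusters, whose products bind DNA between nucleosomes, HIST1H1C (chr6:26055787-26056428) had the highest values. It was at 5701, 2462 and 2143 with the combination, 1784, 785 and 1450 with JQ1, and 845, 593 and 195 with GSK2801, against 724, 505 and 147 in DMSO. The combination libraries were each above the JQ1 library of their line, and JQ1 above DMSO, while ranges over lines of JQ1 and DMSO did not overlap. It rose 3.34-fold with JQ1 (log2 1.74 ± 0.44 SE, n = 3 lines, limma adjusted p = 0.0230) and 8.21-fold with the combination (3.04 ± 0.44, adjusted p = 0.00133). Without SUM159 or HCC1806 the JQ1 call was lost (adjusted p = 0.124 and 0.0826), with log2 changes of 1.96 and 0.97. HIST1H1D, HIST1H1A and HIST1H1B were low, and were highest in HCC1806. HIST1H1D was at 72.5 with the combination, 64.9 with JQ1 and 32.8 with GSK2801 against 33.1 in DMSO there, and HIST1H1A at 43.7, 49.0 and 25.8 against 40.6. In SUM159 HIST1H1D was at 26.5, 22.3 and 27.1 against 29.3, and in MDAMB231 at no more than 0.913. Neither gene passed with JQ1 (0.50 ± 0.41 for HIST1H1D and 0.17 ± 0.55 for HIST1H1A) or with the combination. HIST1H1B, not tested, was at 41.6, 27.3 and 17.6 against 27.8 in HCC1806 and was listed at 0 in the other lines' libraries.

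Among H2A genes, which encode a core histone paired with H2B in the nucleosome, HIST1H2AC (chr6:26124145-26139116) was at 3624, 4134 and 2817 with the combination, 2186, 1456 and 1387 with JQ1, and 640, 300 and 118 with GSK2801, against 518, 277 and 108 in DMSO. Every JQ1 and combination library lay above every DMSO and GSK2801 library. It rose 6.55-fold with JQ1 (2.71 ± 0.38, adjusted p = 0.00254) and 13.9-fold with the combination (3.80 ± 0.38, adjusted p = 2.9e-04). HIST1H2AG was at 473, 89.4 and 1347 with the combination, 314, 66.6 and 718 with JQ1, and 103, 22.7 and 89.1 with GSK2801, against 115, 35.4 and 88.7 in DMSO. It rose in the fit (1.78 ± 0.46 with JQ1, 2.42 ± 0.46 with the combination), although its MDAMB231 libraries with JQ1 and with the combination lay within the range of DMSO over lines. HIST3H2A was at no more than 1.01 in any MDAMB231 library and did not pass. Its values were 774 and 560 with the combination, 611 and 565 with JQ1 and 444 and 137 with GSK2801 in SUM159 and HCC1806, against 352 and 153 in DMSO.

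Among H2B genes, which encode the partner of H2A, HIST1H2BD (chr6:26158146-26171349) was at 2138, 4324 and 2659 with the combination, 887, 1400 and 1185 with JQ1, and 253, 267 and 115 with GSK2801, against 172, 195 and 155 in DMSO. JQ1 and combination libraries all lay above the DMSO and GSK2801 libraries, whose ranges overlapped, and the combination exceeded JQ1 in each line. Its change was 6.54-fold with JQ1 (2.71 ± 0.27, adjusted p = 0.00124) and 16.7-fold with the combination (4.06 ± 0.27, adjusted p = 1.3e-04). HIST2H2BE (chr1:149884459-149886652) was at 2004, 290 and 515 with the combination, 1017, 78.0 and 400 with JQ1, and 289, 16.6 and 42.7 with GSK2801, against 218, 18.0 and 24.3 in DMSO. Within each line JQ1 and the combination were above DMSO, but the MDAMB231 JQ1 library was below the SUM159 DMSO library. It rose 6.74-fold (2.75 ± 0.37, adjusted p = 0.00231) and 14.2-fold (3.83 ± 0.37, adjusted p = 2.7e-04), and without HCC1806 the JQ1 call was lost (adjusted p = 0.0521).

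HIST1H2BC, the head-to-head neighbour of HIST1H2AC, was at 321, 537 and 736 with the combination, 131, 150 and 376 with JQ1, and 50.8, 43.0 and 27.7 with GSK2801, against 48.1, 41.5 and 23.4 in DMSO. No treated library with JQ1 overlapped a DMSO library, and both genes of the pair rose (HIST1H2BC 5.28-fold with JQ1 and 13.6-fold with the combination, adjusted p = 0.0104 and 8.4e-04). Not every pair with overlapping windows moved together. HIST2H2AC, paired with HIST2H2BE, passed in neither comparison (0.25 ± 0.60 with JQ1, 0.11 ± 0.60 with the combination). Nor did HIST1H2BJ, paired with HIST1H2AG (0.85 ± 0.67 and 1.33 ± 0.67). HIST1H2BK was at 986, 870 and 1809 with the combination, 605, 670 and 1126 with JQ1, and 571, 524 and 318 with GSK2801, against 571, 480 and 355 in DMSO. It rose with the combination (1.33 ± 0.37, adjusted p = 0.0217) and missed the threshold with JQ1 (0.74 ± 0.37). HIST1H2BN rose with the combination (1.01 ± 0.28) and did not pass with JQ1 (0.57 ± 0.28), and HIST2H2BF passed in neither (0.76 ± 0.51 with JQ1, 1.15 ± 0.51 with the combination). HIST2H2BF was lower with JQ1 in MDAMB231, at 123 against 193 in DMSO, and shares its locus with FCGR1A on the opposite strand.

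H3 genes, whose product pairs with H4 at the core of the nucleosome, differed between lines. HIST1H3H (chr6:27810064-27811300) was at 392, 19.3 and 1051 with the combination, 273, 8.22 and 689 with JQ1, and 77.9, 10.6 and 39.8 with GSK2801, against 78.5, 6.78 and 52.3 in DMSO. Its MDAMB231 values stayed low, so the groups overlapped over lines. It passed with the combination (2.67 ± 0.75, adjusted p = 0.0233) and not with JQ1 (1.91 ± 0.75, adjusted p = 0.0975). HIST1H3G was at 116, 0.667 and 792 with the combination, 108, 0 and 312 with JQ1 and 35.9, 0 and 28.1 with GSK2801, against 41.0, 0 and 26.7 in DMSO, and was thus at or near 0 in MDAMB231. In that line 5 of 8 tested H3 members were lower with JQ1 than in DMSO and 1 was higher (HIST2H3A and HIST2H3C, which have equal values, counted separately), whereas in HCC1806 8 of 8 were higher. HIST1H3C, named after its values were seen, was at 2.67, 5.48 and 17.0 with the combination, JQ1 and GSK2801 in MDAMB231, against 27.1 in DMSO, and at 52.2, 41.0 and 21.1 in HCC1806, against 18.2.

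H4 genes included the members with the highest fitted changes. HIST1H4H was at 147, 67.4 and 197 with the combination, 52.0, 31.0 and 104 with JQ1, and 9.62, 26.8 and 28.1 with GSK2801, against 7.03, 15.1 and 18.2 in DMSO. Treated libraries with JQ1 all lay above the DMSO range, and it rose 4.16-fold with JQ1 (2.06 ± 0.48, adjusted p = 0.0166) and 9.33-fold with the combination (3.22 ± 0.48, adjusted p = 0.00145). HIST1H4I was at 144, 80.7 and 235 with the combination, 123, 67.6 and 150 with JQ1 and 78.7, 47.9 and 35.2 with GSK2801, against 70.3, 49.0 and 36.3 in DMSO. It passed with the combination (1.46 ± 0.42) and not with JQ1 (1.09 ± 0.42), and the MDAMB231 JQ1 library fell inside the DMSO range.

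HIST2H4A (chr1:149832659-149839767) and HIST2H4B (chr1:149854045-149861210) lie on opposite strands, have identical promoter windows and share 100% of the shorter transcript, stem-loop included, so their reads cannot be assigned to 1 copy with certainty. HIST2H4A held 26.1% to 100% of the pair's signal in single libraries. HIST2H4B was listed at 0 in MDAMB231 DMSO and at 165 with JQ1 there, so its fitted change (4.81 ± 0.97 with JQ1) depends on the pseudocount and was 5.14 and 4.00 with 0.5 and 5 added. Summed over both copies, the pair was at 3915, 1393 and 3673 with the combination, 2157, 385 and 2106 with JQ1, and 320, 119 and 117 with GSK2801, against 195, 84.4 and 88.7 in DMSO. All JQ1 and combination libraries exceeded all DMSO and GSK2801 libraries. The pair as 1 gene rose 10.6-fold with JQ1 (3.40 ± 0.42, adjusted p = 0.00178) and 23.8-fold with the combination (4.57 ± 0.42, adjusted p = 2.3e-04).

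**Figure D3:**
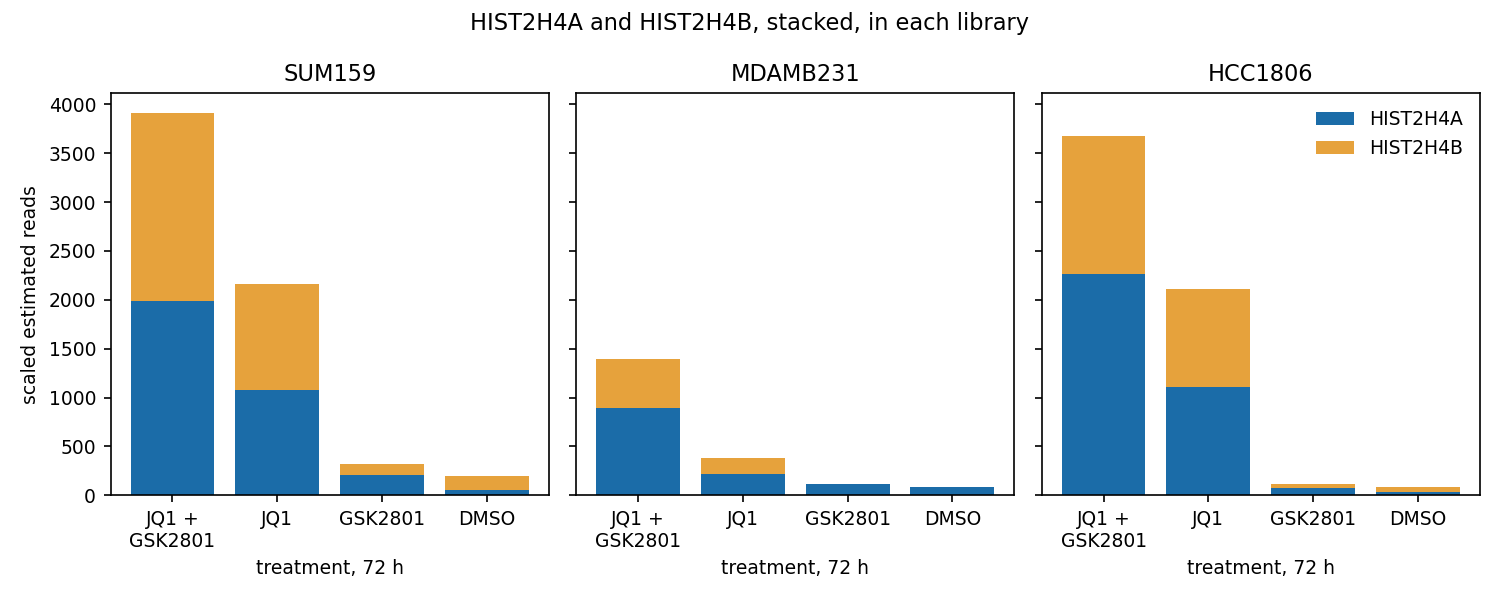
Scaled estimated reads of HIST2H4A and HIST2H4B, stacked, in the 12 libraries, with 1 panel per line and treatments from JQ1 plus GSK2801 at the left to DMSO at the right. Bar height is the pair's sum, which is 84.4 to 195 in DMSO and 385 to 2157 with JQ1, while the split between the copies varies from library to library.

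HIST2H2AA3 (chr1:149842188-149842736) and HIST2H2AA4 (chr1:149851061-149851624) are likewise identical over the shorter transcript, and HIST2H2AA3 was given 80.6% to 100% of their signal. The summed pair was at 3279, 1012 and 946 with the combination, 1130, 222 and 523 with JQ1, and 328, 110 and 54.7 with GSK2801, against 196, 121 and 41.1 in DMSO. JQ1 libraries were above DMSO within each line and over all lines. As 1 gene it rose 5.07-fold with JQ1 (2.34 ± 0.43, adjusted p = 0.00676) and 14.6-fold with the combination (3.87 ± 0.43, adjusted p = 4.2e-04). HIST2H3A and HIST2H3C had the same value in 12 of 12 libraries and count as 1 measurement, and HIST2H3D, which shares 97.8% of its transcript with HIST2H3A, was low. The 3 together were at 1002, 49.7 and 547 with the combination, 372, 18.9 and 259 with JQ1, and 58.6, 37.4 and 25.8 with GSK2801, against 30.5, 46.2 and 17.1 in DMSO. In MDAMB231 this sum was lower with JQ1 than in DMSO. It rose with the combination (3.34 ± 1.01, adjusted p = 0.0306) and did not pass with JQ1 (2.06 ± 1.01, adjusted p = 0.170). HIST2H3A also overlaps HIST2H4B, and HIST2H3C overlaps HIST2H4A, each on the opposite strand, and since the labels name both a stranded and an unstranded kit such reads cannot be told apart.

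Replacement variants had smaller median changes than canonical members and moved in both directions. Of 10 tested, 4 rose and 1 fell with JQ1 (median 0.62), beside 9.52% and 13.1% of all tested genes. With the combination 3 rose and 1 fell (median 0.60), beside 15% and 19.8%. The share called higher with JQ1 was 40%, against 29.7% of the canonical members. H1F0, the linker variant of differentiated and resting cells, was at 4244, 7859 and 16664 with the combination, 5108, 8710 and 16160 with JQ1, and 1505, 6674 and 4129 with GSK2801, against 1413, 5706 and 3461 in DMSO. JQ1 was above DMSO within each line while the ranges over lines overlapped, and it rose 2.95-fold (1.56 ± 0.35, adjusted p = 0.0139). The linker variant gene H1FX rose 1.90-fold with JQ1 (0.93 ± 0.16). H3F3A, 1 of the genes for the replication-independent H3 variant, was at 17712, 12907 and 16775 with the combination, 16320, 10738 and 15713 with JQ1, and 11738, 8349 and 8947 with GSK2801, against 10852, 8295 and 8742 in DMSO. It rose 1.52-fold with JQ1 (0.60 ± 0.11, adjusted p = 0.00600) and 1.70-fold with the combination (0.76 ± 0.11, adjusted p = 0.00115).

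H3F3B, which encodes the same protein as H3F3A, did not pass (0.36 ± 0.27 with JQ1, 0.50 ± 0.27 with the combination). It was at 17018, 8980 and 22264 with the combination, 15846, 8797 and 18089 with JQ1 and 13234, 10350 and 9638 with GSK2801, against 12683, 10294 and 9121 in DMSO, so MDAMB231 was lower and the other lines higher with JQ1. H2AFZ, encoding the promoter-associated variant H2A.Z, was at 9571, 5881 and 6918 with the combination, 9520, 7229 and 6969 with JQ1 and 8162, 11441 and 6336 with GSK2801, against 9051, 11654 and 6409 in DMSO. It did not pass (−0.17 ± 0.23 with JQ1), and MDAMB231 was the line in which it was lower. H2AFX was at 8026, 3269 and 17096 with the combination, 9158, 4140 and 16962 with JQ1 and 3499, 4124 and 6243 with GSK2801, against 3345, 4044 and 6694 in DMSO, and did not pass either (0.94 ± 0.35 with JQ1). Its MDAMB231 values with JQ1 and in DMSO nearly coincided. H2AFV, a close relative of H2AFZ, rose with JQ1 (0.64 ± 0.13, adjusted p = 0.0102) and did not pass with the combination (0.17 ± 0.13).

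H2AFY, the gene of macroH2A, a variant with a large C-terminal domain, was the 1 member to fall. It was at 5957, 4476 and 5294 with the combination, 5861, 4780 and 4961 with JQ1 and 6448, 7372 and 6307 with GSK2801, against 6698, 7371 and 6727 in DMSO, and the JQ1 and DMSO ranges did not overlap. It fell by 0.42 ± 0.12 with JQ1 (adjusted p = 0.0412) and by 0.41 ± 0.12 with the combination (adjusted p = 0.0315). Both calls were lost under TMM scaling and without any 1 line (adjusted p of at least 0.072 with JQ1 and 0.0537 with the combination). H2AFY2, its paralog, was at 215 with the combination, 236 with JQ1 and 817 with GSK2801 in HCC1806, against 820 in DMSO, was at no more than 6.50 in the other lines and did not pass. H2AFJ, an H2A variant gene, was at 15694 with the combination, 9435 with JQ1 and 2117 with GSK2801 in HCC1806, against 1838 in DMSO. In the other lines it was between 361 and 998, and it did not pass (1.02 ± 0.52 with JQ1, 1.41 ± 0.52 with the combination).

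GSK2801 alone called no gene in limma, histone or other (0% of 14232), with 161 genes and 0 of the 47 members at an unadjusted p under 0.05. Class totals with GSK2801 over DMSO ranged from 0.870 for H3 in MDAMB231 to 1.40 for H4 in SUM159. The HIST2H4A and HIST2H4B sum was 1.65, 1.41 and 1.32 times DMSO in SUM159, MDAMB231 and HCC1806, a summed change of 0.54 ± 0.42 that did not pass.

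Adding GSK2801 to JQ1 addressed what the 1 compound did on top of the other. No gene passed the threshold between the combination and JQ1 (0% of 14232), with 1031 genes and 8 of 47 members at an unadjusted p under 0.05. Canonical totals were nevertheless higher with the combination in each line, by 1.79, 3.10 and 1.65 times for H4, 1.90, 2.95 and 1.76 for H2A, 1.97, 2.49 and 1.80 for H2B, 2.0, 2.14 and 1.87 for H3 and 3.17, 3.13 and 1.45 for linker genes. Replacement totals gave 0.977, 0.937 and 1.09. Members higher in all 3 lines numbered 26 of 37 canonical and 3 of 10 replacement, beside 21.7% of all tested genes. The canonical median was 0.64 and the replacement median −0.05, against 0.00 over all tested genes.

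Of the 8 members with an unadjusted p under 0.05, 7 were canonical and had higher values with the combination, and H2AFV had lower ones. HIST1H2BD gave 1.35 ± 0.27 (unadjusted p = 8.0e-04, adjusted p = 0.380) and HIST2H2AA3 was 2.84-fold higher (adjusted p = 0.459). HIST1H1C gave 1.30 ± 0.44, HIST1H2AC 1.09 ± 0.38, HIST1H2BC 1.36 ± 0.50, HIST2H2BE 1.08 ± 0.37 and HIST1H4H 1.17 ± 0.48, with adjusted p from 0.579 to 0.658. H2AFV gave −0.47 ± 0.13. On the log2 scale, departures from adding the single effects gave a canonical median of 0.70 and a replacement median of −0.10, and no gene passed (0% of 14232), with 171 genes at an unadjusted p under 0.05. HIST1H2BD was the 1 member among these (1.16 ± 0.39, adjusted p = 1.0).

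**Figure D4:**
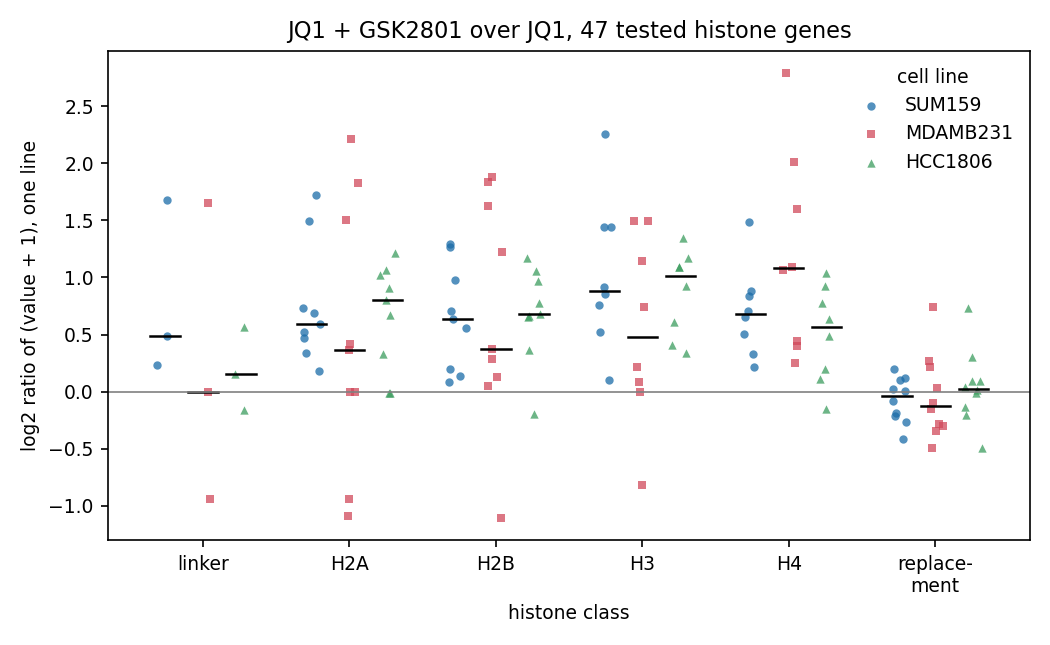
Log2 ratio of (value + 1) with JQ1 plus GSK2801 over JQ1 for the 47 tested histone genes, by class and line. Each point is 1 gene in 1 line and bars are medians. Canonical class medians are above 0 except for linker genes in MDAMB231, and replacement medians lie between −0.12 and 0.03.

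Whether JQ1 acted on histone genes to a different extent in HCC1806 was tested in a further limma model with a JQ1 effect for each line. That effect averages JQ1 over DMSO with the combination over GSK2801, so it is not the JQ1 against DMSO change given above. The JQ1 effect was higher in HCC1806 than the mean of the other lines for 30 of 47 members and lower for none, beside 14.5% and 10.6% of all tested genes. All 8 H3 genes were among them, with HIST2H3A and HIST2H3C counted separately although their values are equal. So were 7 of 9 H2A, 6 of 9 H2B, 3 of 8 H4, 1 of 3 linker and 5 of 10 replacement genes. HIST1H2BD (0.65 ± 0.49) and HIST2H2BE (1.00 ± 0.52) missed the threshold. The residual of this model is the departure from additivity, and its p-values therefore do not reflect variation among lines or among cultures.

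The annotated end of a gene was set beside these changes. Of the 62 canonical genes, GENCODE release 29 extends 17 by more than 100 bases past the stem-loop, ends 8 near it and holds no stem-loop in the model of 37. The authors' annotation is not given in the sources used here. All 17 extended genes were tested, against 5 of 8 and 15 of 37. With JQ1 7 of the 17 rose (median 1.91), 2 of the 5 (2.31) and 2 of the 15 (0.44). With the combination 14, 4 and 3 rose, with medians of 2.67, 3.81 and 0.64. Over all tested genes 9.52% rose with JQ1 and 15% with the combination. The counts for genes with no stem-loop in the model therefore lie near the background. Many models of that kind are short, such as 312 bases for HIST1H4K, 381 for HIST1H2BK and 411 for HIST1H3B. A stem-loop missing from the model thus describes the annotation, and whether the gene holds a stem-loop past the annotated end was not examined. HIST2H2BE is annotated 1729 bases past its stem-loop, HIST1H2AC 1128 and HIST2H4A 1167. HIST1H2BD has a short form that ends 39 bases past it and a longer one of 789 bases without it.

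In MDAMB231 the sums of all 3 kinds of model were higher with the combination and with JQ1 than in DMSO. The 17 extended genes summed to 6861 with the combination and 2423 with JQ1, against 806 in DMSO. HIST1H2AC alone held 4134 and 1456 of these, against 277, and the HIST2H4A and HIST2H4B pair 1393 and 385, against 84.4. The 8 that end near the stem-loop summed to 5351 and 1632, against 335.5. HIST1H2BD, which also has a form without the stem-loop, alone held 4324 and 1400 of these, against 195. The 37 genes with no stem-loop in the model summed to 3425 and 1572, against 1237. HIST1H1C and HIST1H2BK held most of that last sum, and without them, a choice made after their values were seen, the other 35 summed to 93.4 and 117, against 252. In SUM159 these 35 were at 445 and 325 against 258, and in HCC1806 at 1572 and 1040 against 397. The largest genes were not taken out of the sums of the other kinds, so the sums of these 35 cannot be set against them. Gene by gene, 10 of the 17 tested extended members were higher and 4 lower with JQ1 in MDAMB231 (median 0.26). Of the 5 that end near the stem-loop 3 were higher and 2 lower (0.26). Of the 15 with no stem-loop in the model 4 were higher and 9 lower (−0.30). No test was made of these sums and counts.

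A list of 26 S phase genes gave values for replication in the same libraries. In MDAMB231 it summed to 35720 with the combination, 56560 with JQ1 and 104800 with GSK2801, against 108700 in DMSO. In SUM159 it was at 72940, 76820 and 73830, against 84040, and in HCC1806 at 97070, 102000 and 93370, against 101700. MDAMB231 was thus the line whose S phase sum lay furthest below DMSO with JQ1, and the part of S phase content in the histone values was not tested. With JQ1 2 of the 26 fell, POLE2, a subunit of the replicative DNA polymerase epsilon (−1.33 ± 0.24), and the replicative helicase gene MCM5 (−0.85 ± 0.21), a share below the 13.1% of all tested genes that fell. With the combination 11 fell and none rose, beside 19.8% and 15% of all tested genes, among them MCM5 (−1.52 ± 0.21), POLE2 (−1.48 ± 0.24) and the cyclin gene CCNA2 (−1.28 ± 0.31).

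**Figure D5:**
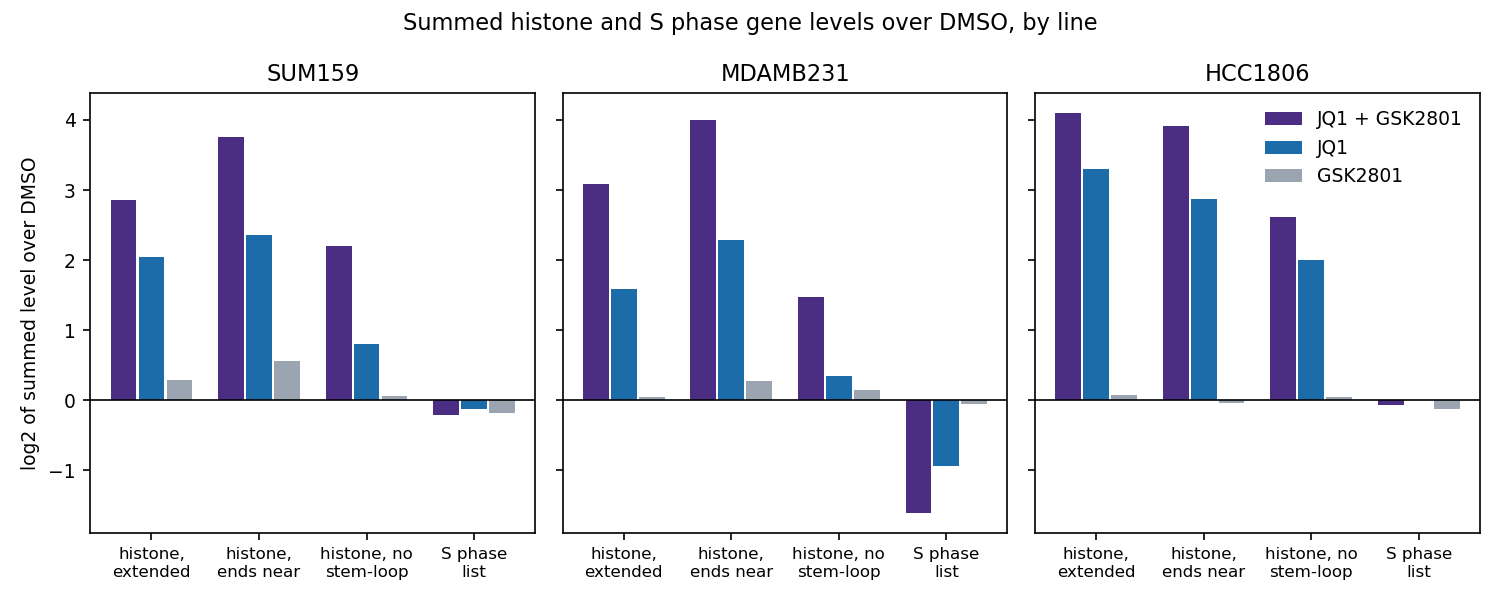
Log2 of the summed level over DMSO for 17 canonical histone genes with an extended model, 8 that end near the stem-loop, 37 with no stem-loop in the model and 26 S phase genes, 1 panel per line. Bars are single libraries with JQ1 plus GSK2801, JQ1 and GSK2801. With JQ1 and with the combination every histone sum is above DMSO in each line. The S phase sum with the combination and with JQ1 is below DMSO in MDAMB231 (35720 and 56560 against 108700) and in SUM159 (72940 and 76820 against 84040). In HCC1806 the S phase sum is 97070 and 102000, against 101700.

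Genes that process or transcribe histone mRNA were followed as a list. Of 23 listed and 21 tested, 6 fell with JQ1 and none rose (median −0.23), beside 13.1% and 9.52% of all tested genes. With the combination 6 fell and 1 rose, beside 19.8% and 15%, and most of the list was not called in either comparison. COIL, the scaffold of the nuclear bodies called coiled bodies, gave −0.84 ± 0.12 with JQ1, and the U7 snRNP subunit genes LSM10 −0.84 ± 0.13 and LSM11 −0.78 ± 0.15. SLBP, whose product binds the stem-loop, did not pass (0.13 ± 0.15), nor did NPAT, a transcription activator of these genes (0.12 ± 0.10). HINFP, which activates H4 genes, rose with the combination (0.54 ± 0.14, adjusted p = 0.0188). Among 31 histone chaperone and variant exchange genes 8 fell and 1 rose with JQ1, beside 13.1% and 9.52% of all tested genes. SSRP1, a subunit of the chaperone FACT, gave −0.80 ± 0.10, DAXX, which deposits the H3 variant together with ATRX, −0.68 ± 0.12, and INO80, the ATPase of a remodelling complex, −0.43 ± 0.09, while ATRX gave 0.46 ± 0.12. With the combination 8 of the 31 fell and 3 rose, which is close to the 19.8% and 15% of all tested genes, with rises in ATRX (0.53 ± 0.12), CABIN1 (0.47 ± 0.11) and UBN1 (0.33 ± 0.08).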

How the data were processed

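Polyadenylated RNA was sequenced from SUM159, MDAMB231 and HCC1806 after 72 h with JQ1 plus GSK2801, JQ1, GSK2801 or DMSO, giving 12 libraries. Reads were processed with STAR 2.4 and Salmon 0.60 on hg38, per the submitters' processing notes. The annotation, filters and scaling are not given in the sources used here. The labels name a KAPA Stranded kit in one field and an Illumina TruSeq kit in another, so strand use in counting is unknown and antisense or overlapping genes cannot be separated. The deposited values were taken as a signal, estimated reads that the authors scaled by 1 factor per library, since the 75th percentile of values above 0 was 1663.93 in each. Between 72.4% and 74.9% of values under 200 reads were whole multiples of 1 step, within 0.02, which was too few for a test on counts, and the step gave 24200000 to 46800000 estimated reads per library. Reads shared by near-identical genes are divided between them by the estimate.

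Of 28539 entries, 27 were symbols turned into dates and were left out. The 14232 genes with a mean of at least 10 were tested on the log2 scale after adding 1, using limma 3.58.1 (R 4.3.3) with a variance trend, and with treatment and cell line as terms (6 residual and 3.02 prior degrees of freedom). Fold changes are on that scale and understate changes of low genes. P-values were Benjamini-Hochberg adjusted over all tested genes, with a threshold of 0.05. A separate fit estimated JQ1 and GSK2801 effects line by line (3 residual and 4.48 prior degrees of freedom). The combination libraries enter both of these effects. Replicate numbers name the cell line, which pairs the libraries. Deviations from group means correlated by 0.872 to 0.972 within a line and −0.578 to −0.306 between lines. Subtracting the mean of 3 lines pushes the correlations between lines below 0, so those values say nothing about the pairing. With 1 library per line and treatment, p-values measure the spread between lines and not between cultures, and they may be too small because each line's response to JQ1 enters both its JQ1 and its combination library. The fit was tested on simulated data.

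Genes were named by rule: the markers HIST1H1C, HIST2H2BE and HIST1H2BD, members with a mean of at least 100, the 4 highest of each class in full, the 5 largest called changes per contrast, near-identical copies, and up to 3 called genes per direction of each added list. The members and lists were chosen with earlier results of these data known. Stem-loops and gene positions come from GENCODE release 29 and promoters from RefSeq on GRCh38.p14. Alternatives changed the pseudocount, filter, scaling, variance trend, block, copies and lines.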

Additional observations from a re-analysis of the deposited data

Results flagged for a closer look

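The JQ1 effect in HCC1806 exceeded the mean of SUM159 and MDAMB231 in the test of that difference (limma, adjusted p under 0.05) for these named genes. The effect is that of the line model, which averages JQ1 over DMSO with the combination over GSK2801. Differences are given in log2 units. Among H2A genes it was 1.43 for HIST1H2AC, 1.84 for HIST1H2AG, 4.40 for HIST2H2AA4, which is listed at 0 in HCC1806 DMSO, and 1.80 for HIST3H2A. For H2B genes the values were 1.94 in HIST1H2BC, 1.56 in HIST1H2BK and 1.52 in HIST2H2BF. H3 genes gave 3.19 for HIST1H3G, 2.90 for HIST1H3H and 2.26 for HIST2H3A and HIST2H3C, which are 1 measurement. H4 genes gave 1.65 for HIST1H4I and 2.03 for HIST2H4A, whose copy HIST2H4B gave −1.31 and did not pass. The linker gene HIST1H1C gave 1.69.

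Replacement variants gave 2.20 for H2AFJ, 1.07 for H1F0, 1.03 for H3F3B, 0.81 for H2AFX and 0.46 for H2AFZ. In H3F3B and H2AFZ the MDAMB231 effect of the line model was below 0 (−0.22 and −0.82) and the HCC1806 effect above it (1.10 and 0.12). HCC1806 had its own medium and the highest JQ1 dose, so line, medium and dose cannot be told apart.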

How the results depend on the processing

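Counts of members called kept within 1.5 times in 113 comparisons with an alternative and moved in 23. Those that kept include contrasts in which no member was called under any setting, such as GSK2801 against DMSO. The rises with JQ1 (15 as reported) and with the combination (24) became 7 and 11 with only the 6 libraries compared, and the 1 fall became 0 in both. With no replicate block, which drops the pairing by line, rises were 0 and 3 and falls 0 and 0, since differences between lines then enter the spread. Leaving out SUM159, MDAMB231 or HCC1806 gave 5, 16 and 2 rises with JQ1 and 10, 26 and 13 with the combination, with 1, 0 and 0 falls in each, the 1 being H2AFY2. The fall of H2AFY was lost without any 1 line in both comparisons, and (0 falls) with JQ1 under no filter, TMM rescaling, quantile normalization and no variance trend, and with the combination under TMM rescaling and no variance trend. The cause was not tested. In the line model, a pseudocount of 5 gave 1 member lower in place of 0. The share of lower genes among all calls was 58.0% with JQ1 and 56.9% with the combination, but 46.5% and 47.3% under TMM rescaling and 45.9% and 48.3% under quantile normalization, and in the line model 42.4% became 56.3% and 49.1%. Median shifts between scalings stayed below 0.1. Among single named genes and counts over all genes, 617 values stayed on their side, 114 lost a call, 15 gained one, 19 moved and no called direction reversed. With 1 library per line and treatment, small changes of low canonical members could not be called.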
